A study of Mus musculus with 9 samples.

Results

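Brain RNA of the N171-82Q mouse model of Huntington's disease (HD) was compared with that of wild-type mice, both given the same control virus. The members are 6 libraries out of 9 in the series, chosen by their labels: 3 labelled HD control and 3 labelled wild-type control. Every mouse behind them had received pAAV-GFAP(pro)-Control-mCherry, an adeno-associated virus that makes the red protein mCherry from the astrocyte promoter GFAP, so the groups share the virus and differ in genotype. Poly(A) RNA was read with a kit that keeps no strand. The labels give the tissue as brain, the design text names the striatum as the site of injection, and no source used here gives age, sex, the exact piece of tissue or whether the 3 libraries of a group come from 3 animals. The p-values therefore measure the spread between these libraries, which may be technical.

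Huntington's disease is caused by an expanded CAG repeat in the huntingtin gene, which lengthens a run of glutamines near the start of the protein. The medium spiny neurons of the striatum are the cells most affected. They fall into a direct pathway, which carries the dopamine receptor Drd1 and substance P (Tac1), and an indirect pathway, which carries Drd2, the adenosine receptor Adora2a and enkephalin (Penk). N171-82Q mice carry a cDNA for an N-terminal piece of human huntingtin, driven by the mouse prion protein (Prnp) promoter in many neurons, beside their own normal Htt genes; it models a fragment, not the full protein.

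The human transgene is not among the 21853 genes listed. Whether reads of the transgene were counted under Htt or Prnp was not tested. The endogenous Htt gene stood at 12608, 12622 and 12597 normalized counts in the wild-type libraries and at 13617, 13564 and 13819 in the HD libraries, a log2 difference of 0.12 (SE 0.016, adjusted p = 7.952e-07). Prnp, the gene whose promoter drives the transgene, stood at 32468, 32096 and 31522 in wild type and at 52180, 51700 and 52223 in HD, a log2 difference of 0.70 (SE 0.014). Every HD library was above every wild-type library for both genes. Since 43.9% of all genes tested were called higher in HD, this does not check the genotype labels, which could not be checked in these files. Striatal genes were high in all 6 libraries and of the cerebellar, hypothalamic, liver and muscle markers Gabra6, Hcrt, Pmch, Alb, Ckm and Myh4 were low in both groups, with means of at most 9.10. The cerebellar marker Cbln1 was not, at 238, 227 and 206 in wild type and 132, 143 and 121 in HD (-0.75, adjusted p = 2.678e-07), and the liver marker Apoa1 rose from 20.4, 11.3 and 8.76 to 59.0, 53.1 and 44.3.

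The libraries held 67.8 to 90.6 M reads, as recovered from the size of their smallest values. Replicates lay close together: the median variance between them was 1.74 to 3.23 times that of counting reads alone, against 129 to 154 times between an HD and a wild-type library. Pearson correlations across genes on the log2 scale were 0.998 to 0.999 within groups and 0.945 to 0.946 between them. The transcripts of the Y-linked genes Ddx3y, Eif2s3y and Uty were listed at 0 in all 6 libraries, and Kdm5d was above 0 in 1 HD library, at 0.7374.

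Of 15241 genes tested, 12858 (84.4%) passed limma's test at a Benjamini-Hochberg adjusted p under 0.05, and such genes are called here. With the spread estimated over all 9 libraries of the series, 6980 were called. Of the 12858, 6689 (43.9% of genes tested) rose in HD and 6169 (40.5%) fell. With so little spread between replicates most genes pass, so lists are also described by members that were called and at least 1.5-fold different. Over all genes 2294 (15.1%) were at least 1.5-fold higher and 2724 (17.9%) at least 1.5-fold lower. A change of at least 2-fold was called upward in 916 genes (6.01%) and downward in 1221 (8.01%), and the middle of the range was close to 0, with a median log2 difference of 0.02 and quartiles of -0.39 and 0.39. For 3533 genes (23.2%) the 95% interval lay wholly within 1.2-fold (1089 genes with all 9 libraries in the fit).

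**Figure D1:**
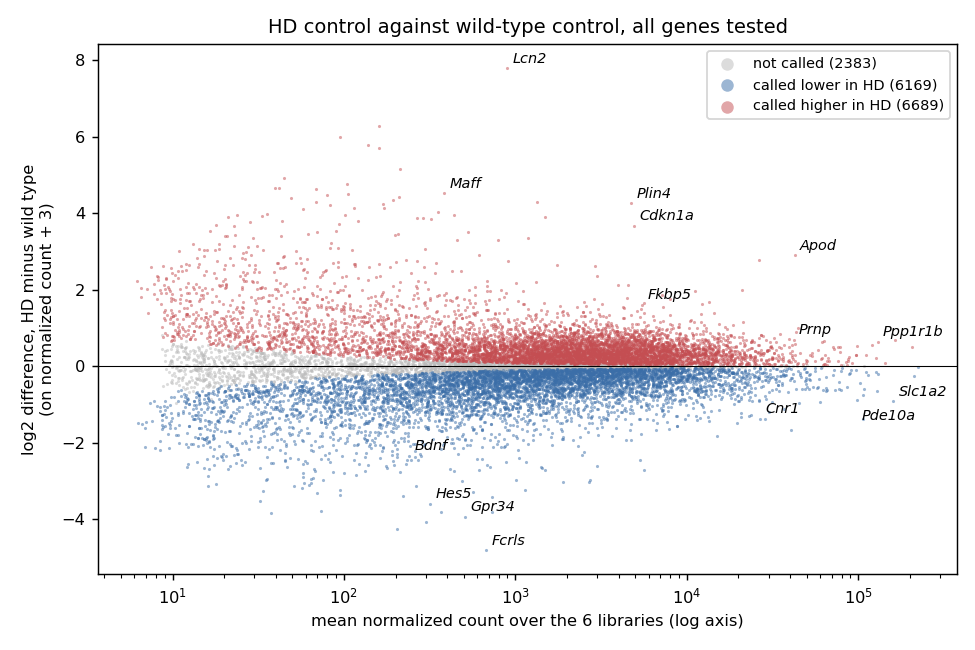
Log2 difference between HD and wild type (vertical axis, on the normalized count plus 3) against the mean normalized count of the 6 libraries (horizontal log axis), 1 point per gene tested and coloured by the call. The 6689 higher and 6169 lower genes fan out at low counts, and Lcn2 (7.79) and Fcrls (-4.80) stand at the top and bottom of the named genes.

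The steepest rise among the named genes was in Lcn2. Lcn2 (chr2:32384633-32388252 in mm10), which encodes the iron-siderophore binder lipocalin 2, stood at 2.82, 5.65 and 7.30 in wild type and at 1808, 1775 and 1745 in HD, a log2 difference of 7.79 (SE 0.15, adjusted p = 1.43e-21). Maff (chr15:79346621-79359076), a small Maf transcription factor, rose from a mean of 29.1 to 737, or 25.4-fold. Plin4 (chr17:56100591-56109803), a coat protein of lipid droplets, stood at 490, 478 and 437 in wild type and at 8931, 9256 and 8895 in HD. The groups were far apart for all 3 genes. Wnt10b, a secreted Wnt ligand on chr15:98770712-98778150, rose 20.1-fold from 122, 133 and 124 to 2503, 2551 and 2549. Gabrr2, a rho subunit of GABA receptors, rose 16.4-fold, Apold1, an early-response gene of endothelium, 15.02-fold, and Wfikkn1, a secreted protein with protease-inhibitor domains, 17.6-fold. Trim72 and Npcd also rose, but 27.6% and 100% of their exon bases lie in exons of other genes, and with no strand the reads of such neighbours cannot be told apart.

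Genes of microglia and oligodendrocytes, a peroxidase and a histone gene were among the steepest falls. Fcrls, a microglial Fc receptor-like protein on chr3:87250758-87263738, fell from 1270, 1294 and 1346 to 42.2, 39.8 and 50.5, to 0.0339 of the wild-type mean. Gpx6, a glutathione peroxidase on chr13:21312125-21319624, fell from a mean of 686 to 46.8. Gpr34, a lysophospholipid receptor of microglia, and Gpr17, a receptor of differentiating oligodendrocyte precursors, fell to 0.0628 and 0.123 of the wild-type mean. Hist1h2be fell from a mean of 574 to 31.7.

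By absolute counts other genes came first. The largest gains were in Fbxl16, an F-box protein of neurons, from 0.232% to 0.365% of all counts, in Snhg11, a host gene of small nucleolar RNAs, in Apod, in Ppp1r1b and in Ncdn, which encodes neurochondrin. Apod, a lipid carrier of glia and meninges, stood at 10087, 9992 and 10092 in wild type and at 75711, 74632 and 75335 in HD, a 7.48-fold rise. Among the largest losses were Slc1a2, the main glutamate transporter of astrocytes, which fell from 0.382% to 0.200% of all counts, Pde10a and Scd2.

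**Figure D2:**
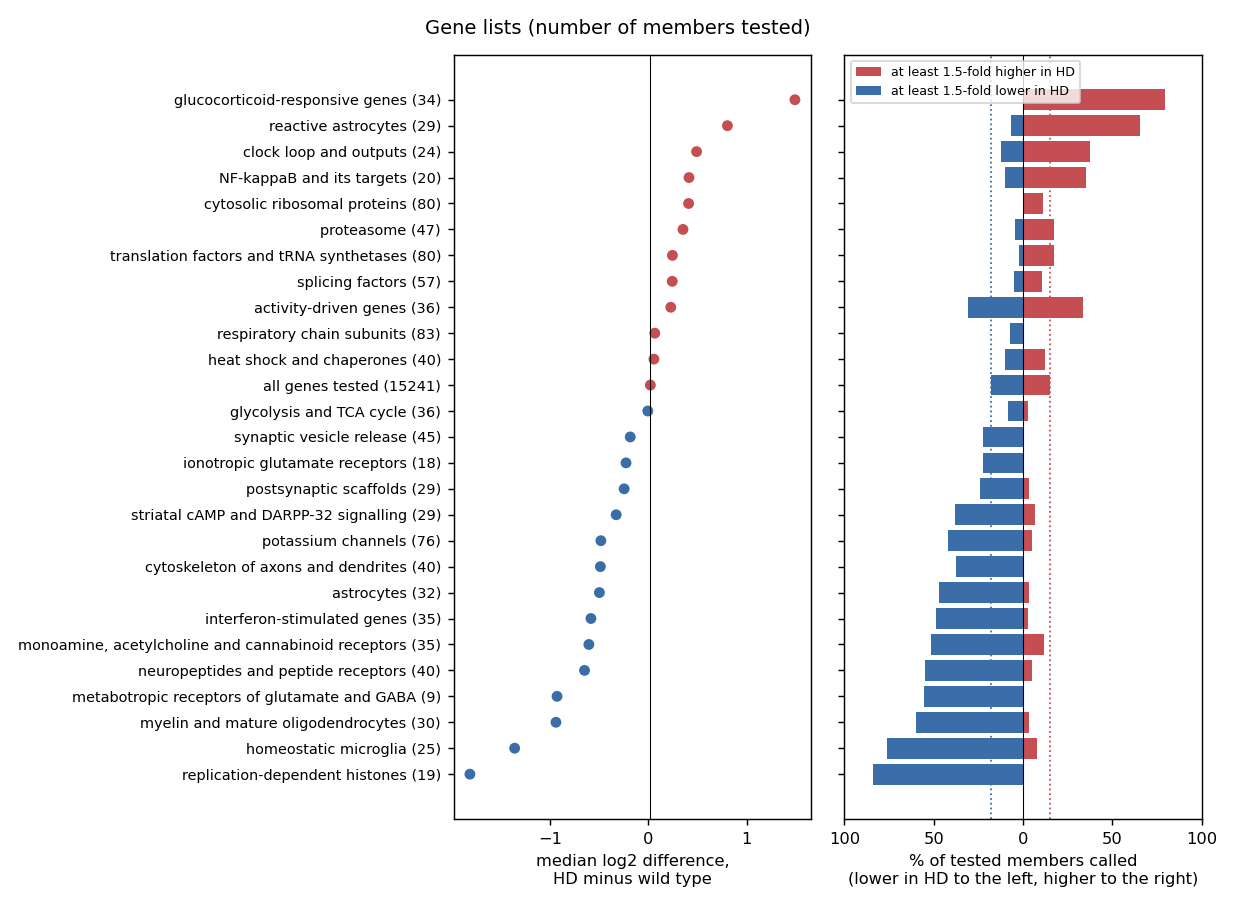
Median log2 difference of 26 gene lists and of all genes tested (left; number of members tested in brackets), and the percentage of tested members called and at least 1.5-fold lower (blue) or higher (red) in HD (right; dotted lines, all genes tested). The lists drawn were chosen after their values were seen. Among them glucocorticoid-responsive genes have the highest median (1.49) and replication-dependent histones the lowest (-1.81). The undrawn list of lymphocytes and neutrophils, with 6 of 19 members tested, had a median of 5.31. A gene near 0 in wild type could pass the filter on low values through the HD libraries alone. With no such filter the median was -0.31 for lymphocytes and neutrophils and -0.51 for histones.

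Genes that answer to glucocorticoids rose in most cases. Glucocorticoids are adrenal steroids that enter cells and bind the receptor Nr3c1, which then acts on target genes such as Fkbp5, Tsc22d3 and Sgk1 in many brain cell types. Of 34 members tested 30 rose, 3 fell and 1 was not called, and 27 were at least 1.5-fold higher and 0 at least 1.5-fold lower, with a median log2 difference of 1.49 against 0.02 over all genes. Some members, such as Lcn2 and Plin4, were known from earlier results of these data to rise. Fkbp5, a co-chaperone that damps the receptor, stood at 2662, 2762 and 2670 in wild type and at 8311, 8208 and 8166 in HD, a log2 difference of 1.61 (SE 0.022, adjusted p = 5.838e-24). Sgk1, a kinase of ion transport, rose from 4528, 4552 and 4445 to 17865, 17844 and 17668. Tsc22d3, which encodes the anti-inflammatory protein GILZ, rose from 3128, 3095 and 3177 to 8298, 8138 and 8092. For these 3 genes no HD library came near a wild-type library.

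Further members rose with them. Cdkn1a, the p21 inhibitor of the cell cycle, rose 12.8-fold, from 747, 728 and 660 to 8994, 9166 and 9262. The transcription factor Cebpd rose 11.7-fold, Hif3a, a hypoxia-inducible factor subunit, 6.34-fold, and the thioredoxin inhibitor Txnip 4.41-fold. Zbtb16, Klf15, Ddit4 and the metallothionein Mt1 had log2 differences of 1.44, 1.56, 1.54 and 1.38. The receptors moved in opposite directions: Nr3c1 fell, with a log2 difference of -0.28 (SE 0.022), and the mineralocorticoid receptor Nr3c2 rose, with one of 0.54 (SE 0.024). Glul and Mertk fell slightly (-0.20 and -0.13) and Bcl6 was not called (0.05).

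The promoter windows in RefSeq (build GRCm38.p6; 250 bases before to 50 after a start) were read for short motifs on both strands; 11855 of the genes tested had a window. The glucocorticoid response element, spelled AGAACA, 3 bases of any kind and then TGTNC, was found for 2 of 30 list members (Fam107a and Sgk1), against 0.11% of the tested genes with a window. The clock E-box CACGTG was found for 5 of 19 members of the clock list (Bhlhe41, Ciart, Cry1, Per1 and Tef), against 11.1%. The RBPJ site GTGGGAA of the Notch pathway was found for 3 of 22 members, Hes5 among them, against 7.52%. Other motifs were read in the same way. The cAMP response element was found for 3 of 27 activity-driven genes (against 3.34%) and the serum response element for 0 of 27 (0.034%). The sterol response element was found for 1 of 26 genes of its list (0.709%) and the heat shock element for 5 of 31 chaperone genes (0.557%). The tail of the endoplasmic reticulum stress element was found for 23 of 30 stress genes (50.2%). Shown are the holders with the largest difference in the glucocorticoid, clock and Notch lists, with the motif in capitals. The Sgk1 window is 1 of 6 for that gene (chr10:21993640-21993939, plus strand). That of Ciart lies on chr3:95882179-95882478, minus strand, and that of Hes5 on chr4:154960673-154960972, plus strand. A match is a description of letters and not a site shown to be bound.
Sgk1: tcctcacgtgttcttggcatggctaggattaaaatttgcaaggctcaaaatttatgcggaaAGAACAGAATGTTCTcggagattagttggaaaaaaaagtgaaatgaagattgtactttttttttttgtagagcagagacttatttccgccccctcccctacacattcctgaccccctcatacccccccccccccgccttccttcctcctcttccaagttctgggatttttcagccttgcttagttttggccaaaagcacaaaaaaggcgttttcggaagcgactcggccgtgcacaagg
Ciart: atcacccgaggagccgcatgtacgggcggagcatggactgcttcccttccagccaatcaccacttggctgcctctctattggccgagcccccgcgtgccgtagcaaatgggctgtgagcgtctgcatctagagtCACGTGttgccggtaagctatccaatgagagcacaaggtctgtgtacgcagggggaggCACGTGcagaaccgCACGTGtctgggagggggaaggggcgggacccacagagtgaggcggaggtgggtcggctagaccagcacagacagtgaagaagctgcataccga
Hes5: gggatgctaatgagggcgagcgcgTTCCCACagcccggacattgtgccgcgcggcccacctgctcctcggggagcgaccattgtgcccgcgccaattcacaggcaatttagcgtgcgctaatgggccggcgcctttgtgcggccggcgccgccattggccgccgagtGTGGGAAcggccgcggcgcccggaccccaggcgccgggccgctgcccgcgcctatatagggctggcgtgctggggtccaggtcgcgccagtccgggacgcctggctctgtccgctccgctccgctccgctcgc
The overlapping matches in Sgk1 read the same stretch on both strands, Ciart held 3 E-boxes, and Hes5 held 2 RBPJ sites, 1 on each strand.

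The daily clock runs as a loop in which Arntl and Clock raise the Per and Cry genes, whose proteins then shut Arntl and Clock off. Of 24 clock genes 20 rose and 4 fell, 9 by at least 1.5-fold upward and 3 downward, with a median of 0.49. Per1, which also answers to glucocorticoids, rose from 7953, 8264 and 7607 to 20542, 20966 and 20969. Ciart, a repressor of the loop, rose from 1168, 1064 and 1058 to 3004, 2876 and 2832. Members of opposite arms rose together: Arntl by a log2 difference of 0.86, Cry2 by 1.10, Cry1 by 0.85, Per2 by 0.47 and Nfil3 by 1.11. The 4 that fell were Dbp, an output factor of the loop, from 6626, 6714 and 6141 to 3511, 3580 and 3779, Rorb (-1.10), Fbxl21 (from a mean of 646 to 323) and Hlf (-0.30). No source used here gives the hour of collection, and its part was not tested.

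**Figure D3:**
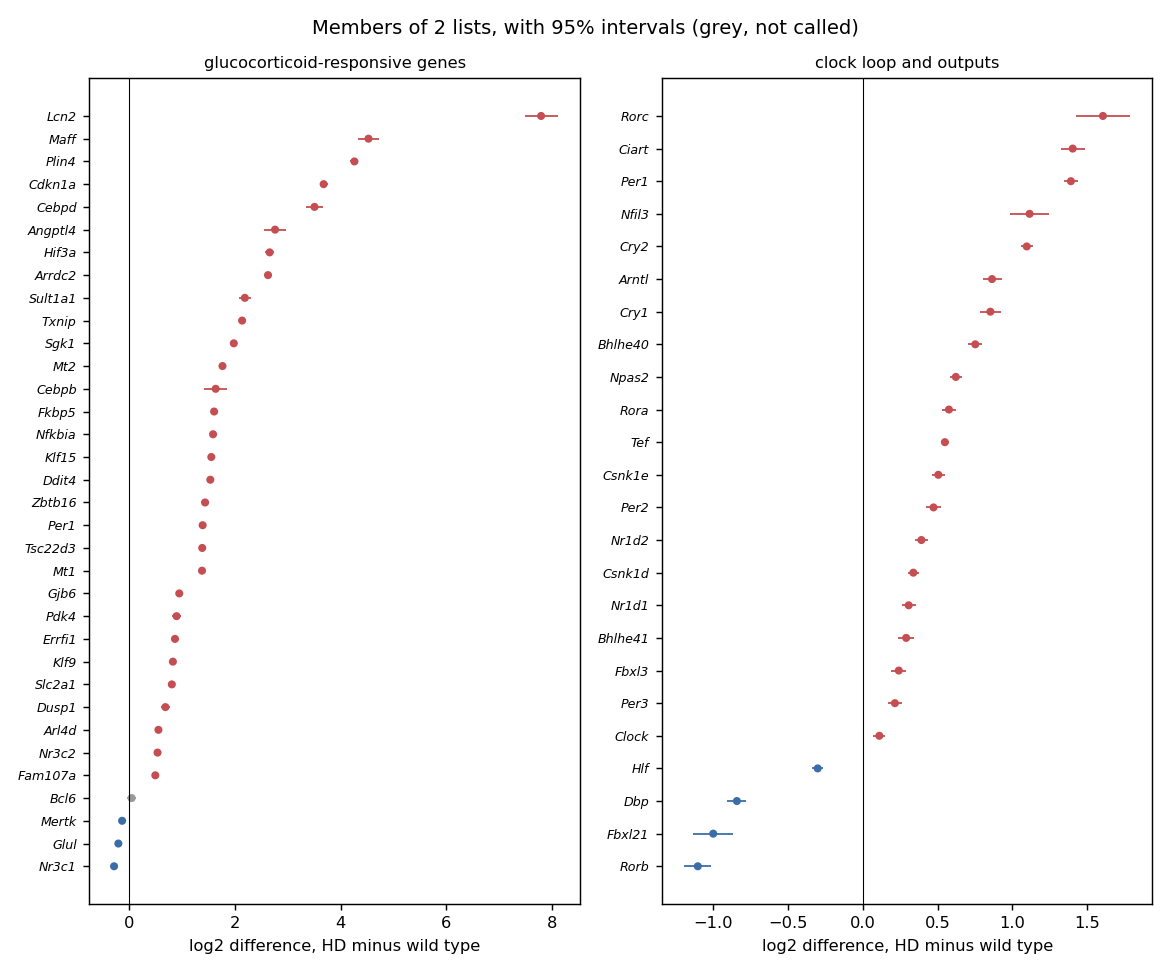
Log2 difference, HD minus wild type, of each tested member of the glucocorticoid-responsive list (left) and the clock list (right); points are estimates and bars 95% intervals, red higher, blue lower and grey not called. On the left 30 of 34 members lie to the right of 0 as called rises, and on the right 20 of 24.

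Genes of fat use and fasting were mixed. Of 39 genes of the PPAR and PGC-1alpha programme 22 rose and 13 fell, with a median of 0.18. At least 1.5-fold higher were 8 (20.5%, against 15.1% of all genes), and at least 1.5-fold lower were 4 (10.3%, against 17.9%). Pnpla2, the lipase that opens stored triglyceride, rose 5.18-fold, from 973, 1006 and 934 to 4989, 5100 and 5015. Plin5 rose from a mean of 22.4 to 163, Angptl4, an inhibitor of lipoprotein lipase, from 66.7 to 467, and Pdk4, which holds back pyruvate oxidation, from 866 to 1617. Among the members that fell were the fatty acid oxidation enzymes Hadha (-0.73), Hadhb (-0.68) and Acadm (-0.63). In the insulin pathway 13 of 32 genes rose and 15 fell; Irs2, the receptor's docking protein, rose from 2871, 2914 and 2713 to 7913, 8043 and 8099, and the kinase Akt2 fell (-1.04) while Akt1 rose (0.33).

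Markers of the 2 types of striatal output neuron did not move as blocks. Drd1 stood at 18382, 17923 and 18274 in wild type and at 16416, 15854 and 16036 in HD, a log2 difference of -0.18 (SE 0.017). Drd2 fell further, from 17341, 17732 and 17570 to 9568, 9631 and 9835 (-0.86, SE 0.017), and Adora2a from 23518, 23110 and 22541 to 12988, 13055 and 12994 (-0.82). Within the same indirect-pathway list, Penk rose from 81515, 80245 and 83026 to 92426, 93308 and 92791, with 14.3% of its exon bases shared. Within the direct-pathway list Tac1 rose from 9061, 8988 and 9237 to 11999, 11814 and 11690. All 5 genes were called, as were 84.4% of all genes tested. Of 9 direct-pathway genes 3 rose and 4 fell, 0 and 2 by at least 1.5-fold (Chrm4, -1.03, and Slc35d3, -0.79). Of 9 indirect-pathway genes 2 rose and 6 fell, 0 and 4 by at least 1.5-fold. The medians were -0.05 and -0.43, and the difference between the lists was not tested.

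Downstream of these receptors, 23 of 29 genes of striatal cyclic AMP and DARPP-32 signalling fell and 4 rose. DARPP-32, the product of Ppp1r1b, is a phosphatase inhibitor that integrates dopamine signals. Ppp1r1b stood at 102850, 102845 and 98517 in wild type and at 155566, 158590 and 160284 in HD, a 1.56-fold rise, with 15.7% of its exon bases shared. Pde10a, the striatal phosphodiesterase that breaks down cyclic nucleotides, fell from 124984, 127091 and 127606 to 69172, 69090 and 69183. Adcy5, the main adenylyl cyclase of the striatum, fell from 97347, 97523 and 94048 to 62377, 63093 and 63385. The steepest fall was in Rgs4, a brake on G proteins, from 61817, 61553 and 60890 to 19272, 19183 and 19311 (-1.67, SE 0.013). Dgkb, Rgs2 and Gnb5 fell with log2 differences of -1.30, -1.23 and -0.96, and Itpka, an inositol trisphosphate kinase, rose (0.83).

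Transcription factors that define the striatum were divided, 8 of 21 rising and 10 falling. Rxrg, a retinoid receptor, fell from 8402, 8622 and 8383 to 3230, 3311 and 3307, and Bcl11b, needed for spiny neurons to form, from 23250, 22927 and 23345 to 14225, 14493 and 14380. Foxp1 rose, with a log2 difference of 0.24, and so did the Dlx genes Dlx1 (0.56) and Dlx2 (0.72).

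**Figure D4:**
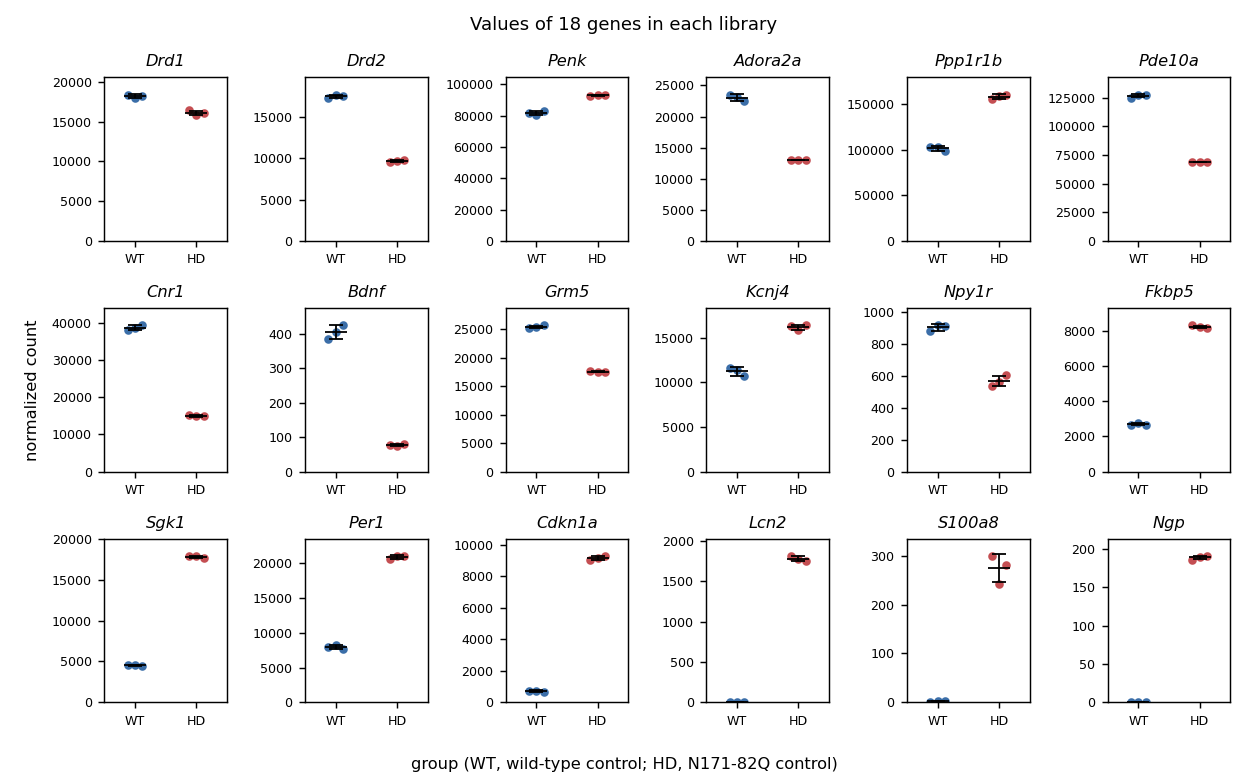
Normalized counts of 18 genes in each of the 3 wild-type (WT, blue) and 3 HD (red) libraries, with the mean and SD as black bars; each panel starts at 0 and has its own scale. All 18 genes drawn were called, as were 84.4% of all genes tested, so separate groups are usual here. Ngp is at 0 in every wild-type library.

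Receptors for neuromodulators fell more often than not. Of 35 receptors for monoamines, acetylcholine, adenosine and cannabinoids 27 fell and 6 rose, and 18 against 4 passed 1.5-fold, with a median of -0.60; with all 9 libraries in the fit the 18 became 11. Cnr1, the CB1 cannabinoid receptor, fell from 38167, 38692 and 39273 to 15238, 14830 and 14945 (-1.37, SE 0.016). Hrh1, a histamine receptor, fell from 473, 478 and 465 to 99.6, 81.8 and 91.7. Htr1a and Htr4, serotonin receptors, and Adra1d, an adrenergic receptor, had log2 differences of -2.02, -2.03 and -2.52. Receptors that rose were Htr2c, from 3461, 3498 and 3523 to 6223, 6108 and 6212, the muscarinic receptor Chrm5, from a mean of 30.6 to 144, Htr3a, Drd4, Chrnb2 and Adra2c.

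Peptide genes also fell more often than they rose. Of 40 neuropeptide and peptide receptor genes 25 fell and 12 rose, 22 against 2 by at least 1.5-fold; with all 9 libraries in the fit the 22 became 11. The peptide Adcyap1 fell from a mean of 118 to 13.9, and the somatostatin receptors Sstr1, Sstr2, Sstr3 and Sstr4 fell with log2 differences of -1.79, -1.67, -1.65 and -1.23. Npy1r and the mu opioid receptor Oprm1 fell (-0.67 and -0.65), while the granule proteins Scg2 and Scg5 rose (0.70 and 0.68).

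**Figure D5:**
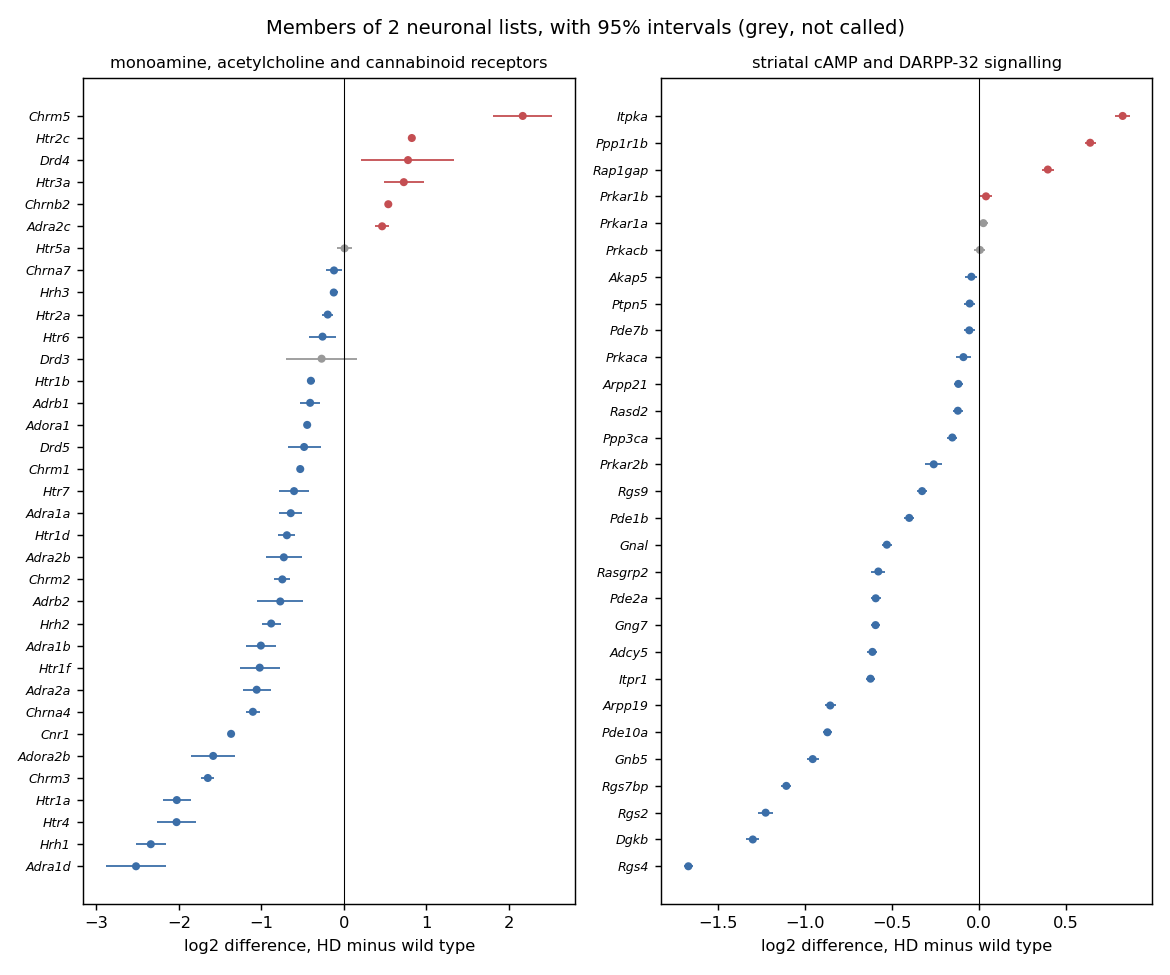
Log2 difference, HD minus wild type, of each tested member of the receptor list (left) and of the striatal cyclic AMP and DARPP-32 list (right); points are estimates and bars 95% intervals, red higher, blue lower and grey not called. Cnr1 (-1.37) and Rgs4 (-1.67) lie low in their lists, and Ppp1r1b (0.64) and Itpka (0.83) lie at the top of theirs.

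Among receptors for the main transmitters the G protein-coupled ones had the lowest median, -0.93, against -0.23 for ionotropic glutamate and -0.32 for GABA-A receptors. All 9 metabotropic glutamate and GABA-B genes fell, 5 of them by at least 1.5-fold (3 with all 9 libraries in the fit). Grm2 fell from 355, 337 and 322 to 53.4, 43.5 and 66.5, and Grm5 from 25248, 25385 and 25711 to 17615, 17497 and 17583. Of 18 ionotropic glutamate receptor genes 12 fell and 3 rose, 4 and 0 by at least 1.5-fold; the obligatory NMDA subunit Grin1 rose (0.56, with 13.5% of its exon bases shared) and Grin3a fell (-1.18). Of 14 GABA-A subunits 10 fell and 2 rose, Gabra2 most among the abundant ones, from 4633, 4753 and 4924 to 2143, 2083 and 2142.

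Potassium channels set how far a neuron is from firing. Of 76 subunit genes tested 52 fell and 12 rose, 32 against 4 by at least 1.5-fold, with a median of -0.48. Kcnd2, an A-type channel of dendrites, fell from 13577, 13663 and 14275 to 8887, 8617 and 8746. The inward rectifiers of spiny neurons went apart: Kcnj2 fell from 4528, 4618 and 4604 to 3205, 3329 and 3360, and Kcnj4 rose from 11614, 11434 and 10668 to 16307, 15844 and 16374. Kcna1 rose 2.05-fold while Kcna6 fell to 0.285 of its wild-type mean, although 39.6% of the exon bases of Kcna6 are shared. Sodium and calcium channels were balanced, 16 of 40 rising and 22 falling, 5 against 5 by at least 1.5-fold. The sodium channel beta subunit Scn2b fell from 28804, 29046 and 29207 to 10390, 10264 and 10281, and Scn4b, its striatal relative, fell by less (-0.21).

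Synaptic and cytoskeletal genes fell more often than they rose. At least 1.5-fold lower were 22.2% of vesicle release genes, 24.1% of postsynaptic scaffold genes and 37.5% of cytoskeletal genes, against 17.9% of all genes. Of 45 vesicle release genes 28 fell and 13 rose, 10 against 0 by at least 1.5-fold; the active zone proteins Rims1 and Unc13a fell (-1.25 and -0.91), Snap25 fell slightly (-0.16) and Syt1 rose by 0.03, which upper-quartile scaling turned to -0.05 and which was not called in 4 of the 6 fits that left out 1 library (adjusted p of 0.0533 to 0.0971). Of 29 postsynaptic scaffold genes 20 fell and 8 rose, 7 against 1 by at least 1.5-fold. Without genes that share exon bases the 7 became 1. Shank1 fell from 14522, 14687 and 13792 to 5822, 5882 and 6106, and Dlg4, which encodes PSD-95, had a log2 difference of -0.32. Of 40 cytoskeletal genes of axons and dendrites 28 fell and 11 rose, 15 against 0 by at least 1.5-fold. Without genes that share exon bases the 15 became 6. The neurofilament gene Nefm fell from 16934, 16093 and 16763 to 6078, 6266 and 6513, and the tubulin Tubb4a from 41693, 42080 and 40261 to 15784, 15939 and 16152, while Actb rose (0.51).

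Markers of the cortex fell in most cases. Of 19 cortical layer markers 16 fell and 2 rose, 12 against 0 by at least 1.5-fold, and their summed level was 55652 to 56383 in wild type and 39651 to 39954 in HD. The cortical vesicular glutamate transporter Slc17a7 fell from 17839, 17748 and 17151 to 7595, 7664 and 7674, and the cortical factor Tbr1 from 2545, 2520 and 2536 to 768, 727 and 776. None of the 19 was at 0 in either group. Slc17a6, the transporter of thalamic and hypothalamic neurons, fell from 301, 316 and 329 to 64.6, 59.7 and 72.0, whereas the thalamic marker Prkcd rose from 660, 673 and 679 to 940, 970 and 944. Of 12 tested markers of other brain regions 9 fell and 2 rose, the latter Ddc, the enzyme that makes dopamine and serotonin, from 338, 317 and 334 to 1399, 1331 and 1215, and Agrp, a hypothalamic peptide. The summed level of the 20 markers in that list was 3234 to 3330 in wild type and 3186 to 3365 in HD. Among interneuron genes 14 of 20 fell and 4 rose; Pvalb fell (-1.10), Chat fell (-0.29) and Sst was not called (-0.04, adjusted p = 0.3022), and the list summed to 130020 to 131499 in wild type and 129016 to 129539 in HD. The part of cortical tissue in the receptor, channel and synapse results was not tested, and in whole tissue fewer cells of a type and less RNA per cell cannot be told apart.

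Genes that neurons switch on with activity split into groups of opposite sign. Of 36 members 19 rose and 16 fell, 12 against 11 by at least 1.5-fold. Arc, which remodels synapses, fell from 7079, 7229 and 6721 to 1750, 1925 and 1862, Egr2 from 450, 487 and 492 to 120, 98.8 and 124, and Npas4 from 1032, 1089 and 932 to 408, 448 and 405. Fos rose from 360, 376 and 352 to 973, 1015 and 1047. Klf4, Gadd45g and Btg2 rose as well, with log2 differences of 1.74, 1.25 and 1.06.

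Brain-derived neurotrophic factor reaches the striatum mainly from cortical neurons and supports spiny neurons. Bdnf fell from 384, 405 and 424 to 76.5, 75.2 and 80.7 (-2.34, SE 0.089, adjusted p = 2.075e-16), with 14.4% of its exon bases shared. The neurotrophin receptor Ngfr fell from 306, 308 and 315 to 89.3, 74.5 and 74.5. Rest, the silencer of neuronal genes that huntingtin binds in the cytoplasm, rose from 516, 526 and 525 to 658, 773 and 707. Over the 34 genes of this axis and of huntingtin's protein partners 20 rose and 11 fell, 3 against 2 by at least 1.5-fold, so few moved far. The acetyltransferase Crebbp was among those that did (0.70).

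DNA mismatch repair acts on CAG repeats in neurons, and variants of some of its genes shift the onset of the disease in patients. In a wider list of 20 DNA repair genes 12 rose and 4 fell, 5 against 1 by at least 1.5-fold. Msh3, whose product lengthens repeats, stood at 1249, 1247 and 1238 in wild type and at 2003, 2074 and 2037 in HD (0.71, SE 0.032), and Pms2 at 994, 950 and 1023 against 1751, 1754 and 1713. The nuclease Fan1, which opposes expansion, rose by 0.36. Xpa rose by 1.26 and Parp1 fell (-0.69).

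Neutrophil genes appeared in HD from levels near 0. Of the 8 markers in the list, Ngp, Retnlg, Ly6g and Elane were at 0 in all 3 wild-type libraries, and their sum over all 8 was 4.38 to 8.08 in wild type and 830 to 923 in HD. Ngp, a granule protein, stood at 0, 0 and 0 in wild type and at 186, 190 and 190 in HD. The calprotectin subunits S100a8 and S100a9 stood at 1.41, 2.42 and 2.19 against 299, 243 and 281, and at 2.82, 4.85 and 2.19 against 324, 289 and 342. The defining markers Ly6g, Mpo and Elane stayed low in HD, with means of 1.19, 3.21 and 0.656, and were below the filter on low values. Lymphocyte markers were low in both groups, summing to 31.4 to 38.0 in wild type and 7.37 to 15.4 in HD, and the globin genes Hbb-bs and Hba-a1 fell (-1.78 and -1.24). Mmp8, a neutrophil collagenase, stood at 0 in wild type and at 32.7, 45.0 and 21.6 in HD, Mmp9 rose from a mean of 30.8 to 202, and Lcn2 also belongs to neutrophil granules. Their part in the rise of Lcn2 and Mmp9 was not tested.

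Homeostatic microglial genes fell in 20 of 25 cases and rose in 3, 19 against 2 by at least 1.5-fold. At least 1.5-fold lower were 76.0% of them, against 17.9% of all genes. Without genes that share exon bases the 19 became 12. The summed level of the 25 genes fell by less, from 71312 to 72178 in wild type to 63375 to 63554 in HD. The hexose transporter Slc2a5 fell from 401, 374 and 393 to 17.5, 14.8 and 21.6, and the purine receptor P2ry12 from 2414, 2365 and 2513 to 407, 360 and 401. Of 25 genes linked to disease-associated microglia 11 rose and 12 fell, with a median of -0.05; the galectin Lgals3 rose from 30.3, 32.3 and 31.4 to 162, 162 and 201, Trem2 fell from 791, 725 and 766 to 390, 423 and 455, and C4b of the complement list rose 2.30-fold while C3 was not called (0.07). NF-kappaB genes rose in 14 of 20 cases and fell in 6, the adhesion molecule Icam1 rising 3.68-fold and Vcam1 falling to 0.452 of its wild-type mean. Interferon-stimulated genes fell in 24 of 35 cases and rose in 4, 17 against 1 by at least 1.5-fold (9 in place of the 17 with all 9 libraries in the fit), Oasl2 most among those above 100 (-1.73). The alarmin Il33, made by oligodendrocytes and astrocytes, fell from 5090, 5050 and 5240 to 834, 886 and 807.

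Myelin genes fell by very different amounts. Of 30 members 25 fell and 4 rose, 18 against 1 by at least 1.5-fold. The lipid enzymes fell steeply: Ugt8a, which makes galactosylceramide, from 4665, 4802 and 5088 to 662, 632 and 546, and Fa2h from 2934, 2882 and 2797 to 874, 907 and 883. Mog fell from 4675, 4764 and 4784 to 1772, 1909 and 1776. Mbp, a major myelin protein, stood at 229966, 225177 and 225166 in wild type and at 221400, 221677 and 223843 in HD, a log2 difference of -0.03 whose call was lost in 3 of the 6 fits that left out 1 library: HD library 1 or 2 or wild-type library 1 (adjusted p of 0.0856 to 0.128). Genes of sterol synthesis, on which myelin draws, and of sterol control and export fell in 24 of 35 cases and rose in 9. Msmo1 and Hmgcs1 fell (-1.21 and -0.88) and Lss and Fdft1 rose (0.74 and 0.71).

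Astrocyte genes fell in 25 of 32 cases and rose in 6, 15 against 1 by at least 1.5-fold. The water channel Aqp4 fell from 6014, 6037 and 6227 to 2786, 2671 and 2700, whereas Gfap, the filament protein whose promoter drives the virus, rose from 5600, 5610 and 5541 to 7985, 8105 and 8136. Genes of reactive astrocytes rose in 20 of 29 cases and fell in 6, 19 against 2 by at least 1.5-fold; with all 9 libraries in the fit the 19 became 12. The oncostatin M receptor Osmr rose 3.96-fold, Cd109 6.86-fold and Serpina3n 3.09-fold, while S1pr3 and Gbp2 fell (-0.83 and -0.59). Fkbp5 and Lcn2 stand in this list and in the glucocorticoid list.

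Vessel and meningeal genes were mixed. Of 30 genes of endothelium and mural cells 20 fell and 5 rose, Kdr and Tek, receptors for vascular growth factors, falling (-1.46 and -1.36) and the barrier transporters Mfsd2a and Slc2a1 rising (1.16 and 0.81). Vegfa, the ligand of Kdr, fell from 4902, 5030 and 4930 to 1891, 1914 and 1931. Fibroblast collagens fell, Col3a1 from a mean of 106 to 10.2 and Col1a1 from 247 to 93.9. Ptgds, prostaglandin D synthase of meninges and oligodendrocytes, rose from 6929, 6717 and 6622 to 46575, 46462 and 46038 and alone carried the summed level of the meningeal list from 14447 to 14804 in wild type to 52042 to 52603 in HD.

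Cytosolic ribosomal protein genes rose almost throughout, by small steps. Of 80 cytosolic ribosomal protein genes 78 rose and 0 fell, with a median of 0.41, and 9 were at least 1.5-fold higher (4 with equal totals and 3 with upper-quartile scaling). Rps27 rose from 5152, 4828 and 5047 to 9541, 8983 and 9224, and Rpl3 from 21577, 21524 and 21301 to 31489, 31306 and 31480. Mitochondrial ribosomal genes had a median of -0.01, 31 of 78 rising and 33 falling. Of 80 translation factors and tRNA synthetases 50 rose and 19 fell, from -0.72 to 1.24; the initiation factors Eif3e and Eif4b rose 1.86-fold and 1.78-fold, and Eef1a2, the neuronal elongation factor, fell (-0.63). Of 47 proteasome genes 39 rose and 6 fell, from -1.12 to 0.78, Psmf1 rising 1.71-fold and Psmd6 1.66-fold. Autophagy genes rose in 22 of 37 cases and fell in 7, and the cargo receptor Sqstm1 rose from 18916, 18683 and 18420 to 29235, 29459 and 29320.

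Of 40 chaperone genes 20 rose and 17 fell. Hsph1 fell from 19056, 19103 and 19266 to 8508, 8598 and 8575, and Chordc1 fell (-1.33). The small heat shock protein Cryab, abundant in oligodendrocytes, fell from 5894, 5797 and 5853 to 1899, 1905 and 1888, with 17.0% of its exon bases shared. The mitochondrial chaperone Hspa9 rose (0.70). Of 34 genes of ATF4 and unfolded protein stress 16 rose and 18 fell; Atf3 rose from a mean of 41.0 to 278 and Herpud1 2.18-fold, and the cystine transporter Slc7a11 fell (-1.17).

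Respiratory chain genes stayed within narrow bounds: 42 of 83 rose and 26 fell, 0 and 6 by at least 1.5-fold, and the median of 0.07 turned to -0.01 with upper-quartile scaling. Glycolytic and TCA genes had a median of -0.01, with Ogdh and Pfkl falling (-0.86 and -0.76). Iron genes split, the exporter Slc40a1 falling from 686, 726 and 679 to 218, 235 and 239 and haem oxygenase Hmox1 rising from 253, 209 and 218 to 498, 528 and 516.

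In the nucleus, replication-dependent histone genes, whose normal transcripts carry no poly(A) tail, fell in 17 of 19 cases and rose in 2; only 19 of 67 passed the filter on low values. Splicing factors rose in 40 of 57 cases and fell in 14, Sf3b1 (0.79) and Ptbp2 (0.74) among the rises and the neuronal RNA-binding protein Elavl4 (-1.49) among the falls. Chromatin regulators rose in 33 of 56 cases and fell in 17; Kmt2b and Tet2 rose (1.21 and 1.05) and Hdac9 fell (-1.06). Polr2a, the large subunit of RNA polymerase II, rose from 6416, 6314 and 6319 to 14168, 14717 and 14734.

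Of the 3 genes in the study's title, Nfatc2 fell, Mmp14 rose slightly and Wnt5b was not called. Wnt5b, a secreted ligand that mostly acts without beta-catenin, stood at 74.6, 63.8 and 57.6 in wild type and at 63.8, 44.2 and 49.2 in HD; the groups overlapped and the log2 difference of -0.31 (95% interval -0.65 to 0.03, adjusted p = 0.08141) was not called. Mmp14, a membrane metalloproteinase, stood at 686, 720 and 686 against 760, 726 and 824 and rose by 0.14 (adjusted p = 0.01567); without HD library 3 it was not called (0.09, adjusted p = 0.133). Nfatc2, a transcription factor freed by calcineurin, fell from 2577, 2718 and 2534 to 1779, 1752 and 1791 (-0.56, SE 0.031).

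Around them, Wnt ligands, receptors and secreted inhibitors fell in 25 of 46 cases and rose in 17, 16 against 7 by at least 1.5-fold. Besides Wnt10b, the ligands Wnt3 and Wnt5a rose (1.45 and 0.68), Wnt4 and Wnt9a fell (-1.49 and -1.81), and the receptor Ror2 was low and not called (-0.49, adjusted p = 0.07285). Of 32 genes of Wnt transduction and polarity 10 rose and 14 fell, 2 against 3 by at least 1.5-fold, with a median of -0.04. In the beta-catenin branch the target Axin2 fell from 1510, 1507 and 1531 to 1095, 1171 and 1140 and the factor Tcf7 to 0.405 of its wild-type mean. In the calcineurin list 9 of 18 genes rose and 7 fell, 2 against 1 by at least 1.5-fold, with a median of 0.01. Rcan1, an NFAT target, and Dyrk1a, the kinase that sends NFAT out of the nucleus, rose 1.52-fold and 1.88-fold. Metalloproteinases and their inhibitors rose in 18 of 51 cases and fell in 25; Adamts1 rose 3.15-fold, Timp2 had a log2 difference of 1.16, and Mmp17 and Mmp15 fell (-1.29 and -1.40). Matrix proteoglycans fell in 21 of 33 cases and rose in 7, Ncan from 16342, 16117 and 16008 to 6522, 6513 and 6658 and its link protein Hapln1 to 0.372 of its wild-type mean.

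In the Notch pathway, which keeps glial and stem cells from differentiating, 13 of 27 genes rose and 12 fell. The target Hes5, whose promoter is shown above, fell from 614, 625 and 542 to 51.0, 44.2 and 44.3, with 31.8% of its exon bases shared, while the ligand Dll4 rose from 236, 219 and 192 to 863, 880 and 834. Of 28 genes of growth arrest and p53 16 rose and 11 fell; Trp53inp1 and Pmaip1 rose with Cdkn1a (1.68 and 1.58), and the cyclins Ccnd1 and Ccnd2 fell (-1.93 and -1.07).

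Several transcripts used as references in quantitative PCR were not level. Of 18, 12 rose and 4 fell. Hprt stood at 4442, 4415 and 4650 against 4602, 4408 and 4421 and was not called (-0.01, adjusted p = 0.7687). Gapdh rose by 0.22 and Actb from 65772, 65009 and 62734 to 91586, 91050 and 91874.

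The differences varied with gene length on the chromosome. In the 1524 genes with the longest span, at least 139169 bases, the median was -0.16, 6.63% were at least 1.5-fold higher and 21.6% at least 1.5-fold lower. In the 1525 genes with the shortest span, up to 4665 bases, the median was 0.06, with 18.2% and 18.5%. The share of genes called grew with expression, from 65.0% of the 1525 genes with the lowest means to 92.9% of the 1524 with the highest. The share called and at least 1.5-fold different was instead larger among the lowest means. There 30.4% were higher and 29.7% lower, against 9.12% and 10.04% among the highest means. The lists were set against all genes tested and not against genes of similar expression, so shares of lists with low counts compare less directly.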

How the data were processed

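Poly(A) RNA of 3 wild-type and 3 HD brain libraries, all with the control virus, was analysed. Reads were aligned with STAR to mm10, per the submitters' processing notes; how reads were counted and scaled is not given in the sources used here. The deposited values are a normalized signal per gene, called normalized counts here: low values are whole multiples of 1 step in each library (97.4 to 97.7% of them). Symbols, positions and exon overlap were taken from GENCODE M21. A gene was tested where 3 or more of the 6 libraries reached a value of 10, and log2(value + 3) was fitted with limma 3.58.1 (R 4.3.3, empirical Bayes with trend) on these 6 libraries only, so folds of low genes are understated. All p-values were adjusted by Benjamini-Hochberg over all genes tested. An exact permutation test of 3 libraries against 3 cannot go below a p of 0.1. The fit was tested on simulated data. The members and the 66 gene lists were chosen with earlier results of these data known, and no list was tested as a set. Named genes were anchors of each list, the 10 largest rises and falls among called genes without overlap and with a mean of at least 500 in the higher group, the 5 largest gains and losses in counts, and up to 4 called members per list with a mean of at least 100 in the higher group. List members named outside that rule, such as Cebpd, Htr2c, Kcna1, Npas4 and Slc40a1, were chosen after their values were seen. Some genes that the rule names are not reported here. Alternatives covered scaling, filter, constant, pooling of all 9 libraries, a fold threshold, a replicate block, gene overlap and leaving out each library.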

Additional observations from a re-analysis of the deposited data

How the results depend on the processing

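Among the 378 called of 390 named genes, only Syt1 (-0.046) and Timp3 (-0.012) changed sign under an alternative that was run, both with upper-quartile factors; some uncalled genes, among them C3, H2-K1, Hprt, Ppara and Sst, also did under some setting. Leaving out 1 library at a time gave 12537 to 12762 calls, and 5 named genes (Hdac4, Mbp, Mmp14, Mmp2 and Syt1) lost their call in at least 1 of these fits. Same-numbered libraries of the groups did not deviate together (correlations of -0.028, 0.021 and -0.074). The median variance between replicates was only 1.74 to 3.23 times that of counting reads alone. These correlations therefore cannot show whether the numbers pair the libraries. A fit with the replicate block called 12808 genes. The planned count models on recovered reads were not run, since only 97.4 to 97.7% of low values were whole multiples of 1 read. Of the 1525 genes with the lowest means 65.0% were called, and the part of depth in this was not tested.

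With all 9 libraries in the fit 6980 genes were called, 3781 higher and 3199 lower, 1089 were stable, and 67 named genes lost their call. Against a 1.2-fold threshold (limma treat) 7846 were called, 3985 higher and 3861 lower. Without genes that share any exon base with another gene 8202 of 9760 tested were called, 4215 higher, 3987 lower and 1481 at least 1.5-fold higher, and 2195 were stable; fewer genes were tested there by construction. With a mean of at least 100 the changes of at least 2-fold fell to 469 higher and 792 lower.

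Some lists' counts of members called and at least 1.5-fold different moved by over 1.5 times. With all 9 libraries in the fit the lower members were other brain regions 3 (from 8), neuropeptides and their receptors 11 (from 22), monoamine, acetylcholine and cannabinoid receptors 11 (from 18), metabotropic receptors of glutamate and GABA 3 (from 5), antigen presentation 3 (from 6), interferon-stimulated genes 9 (from 17), meninges and fibroblasts 4 (from 10), clustered protocadherins 2 (from 6). With all 9 libraries in the fit the higher members were disease-associated microglia 3 (from 5), reactive astrocytes 12 (from 19), choroid plexus and ependyma 5 (from 8). Without genes that share exon bases the lower members were other brain regions 5 (from 8), metabotropic receptors of glutamate and GABA 3 (from 5), postsynaptic scaffolds 1 (from 7), homeostatic microglia 12 (from 19), complement and chemokines 5 (from 8), interferon-stimulated genes 10 (from 17), mitochondrial ribosomal proteins 2 (from 6), clustered protocadherins 1 (from 6), metalloproteinases and inhibitors 8 (from 14), cytoskeleton of axons and dendrites 6 (from 15), MAPK phosphatases and Sprouty 5 (from 8). Without genes that share exon bases the higher members were DNA repair modifiers of CAG repeats 1 (from 5), NF-kappaB and its targets 3 (from 7), clock loop and outputs 5 (from 9), cytosolic ribosomal proteins 4 (from 9), translation factors and tRNA synthetases 7 (from 14), proteasome 5 (from 8), chromatin regulators 6 (from 10). With a mean of at least 100 the lower members were other brain regions 3 (from 8), antigen presentation 1 (from 6), interferon-stimulated genes 9 (from 17), meninges and fibroblasts 4 (from 10), replication-dependent histones 6 (from 16), Wnt ligands, receptors and inhibitors 10 (from 16), metalloproteinases and inhibitors 8 (from 14). With a mean of at least 100 the higher members were choroid plexus and ependyma 3 (from 8). With equal totals the higher members were cytosolic ribosomal proteins 4 (from 9). With upper-quartile factors the higher members were cytosolic ribosomal proteins 3 (from 9), translation factors and tRNA synthetases 8 (from 14), proteasome 4 (from 8). The cause of the moves with the 9-library fit and the scalings was not tested.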

Other observations

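Genes of the Dnah and Cfap families, linked to motile cilia, rose more often than they fell. Both families were picked because their medians were among the highest of the families grouped by symbol. Over all genes tested 43.9% rose and 40.5% fell. Of 15 dynein heavy chain genes (Dnah) 8 rose and 3 fell, 7 against 3 by at least 1.5-fold, with a median log2 difference of 0.51, and of 29 Cfap genes of the ciliary axoneme 18 rose and 4 fell, with a median of 0.46. Dnah11 stood at 75.3, 49.3 and 60.6 in wild type and at 209, 214 and 223 in HD. In the list of choroid plexus and ependyma, 9 of 21 rose and 5 fell, with a median of 0.04 against 0.02 over all genes. At least 1.5-fold, 8 were higher and 2 lower, and the 8 became 3 with a mean of at least 100. Foxj1, a transcription factor of motile cilia, rose by 0.19, and the choroid plexus carrier Ttr was not called (-0.03). Enpp2, which choroid plexus and oligodendrocytes share, fell from 11104, 11169 and 11475 to 4104, 4114 and 4144.

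The class II antigen genes H2-Eb1 and Cd74 fell, H2-Eb1 from 104, 93.7 and 102 to 24.7, 12.5 and 9.85 and Cd74 from 373, 395 and 362 to 140, 128 and 155, while the class I gene H2-D1 rose (0.37); over the antigen presentation list 11 of 21 fell and 6 rose. Collagens fell in 28 of 44 cases and rose in 11, with Col5a3 rising 3.08-fold. Phosphatases and Sprouty proteins that brake MAP kinases fell in 18 of 29 cases and rose in 9, Dusp19 from 925, 887 and 922 to 263, 282 and 266. Oligodendrocyte precursor genes fell in 12 of 15 cases and rose in 2, Olig2 among the falls (-0.76). Clustered protocadherins were even, 20 of 57 higher and 20 lower, but 36 share over 10% of their exon bases with other genes, so their counts are uncertain. Lysosomal hydrolases were even too, 17 of 38 each way; Hexa fell (-1.12) and the activator Psap rose (0.54).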
